A study of Neurospora crassa with 94 samples.

Results

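The subject is the 4 genes of the ISWI chromatin remodeling complexes of the filamentous fungus Neurospora crassa for which the series holds deletion strains: isw (symbol crf4-1), acf (crf4-2), iaf-1 (NCU00412) and iaf-2 (NCU09388). They were taken by symbol or locus tag from the 10397 genes of the RNA tables, not by any measured value. Of 94 samples, 41 were RNA-seq libraries of mycelium grown in constant light, while 53 ChIP-seq or MNase-seq samples were left aside. The RNA libraries form 3 library series, named here by the number that opens their column names in the RNA tables. The sample titles of series 118 do not hold that number and say batch 4. Series 111 holds wild type (WT) and strains labelled acf, iaf-1 and iaf-2. Series 112 holds WT, strains labelled set-7 and acf, and a triple mutant that combines acf, iaf-1 and iaf-2. Series 118 holds WT, the isw strain, a strain labelled as the same triple mutant and all 3 double mutants of acf, iaf-1 and iaf-2. Triple mutant below always means the libraries labelled acf iaf-1 iaf-2. Each of the 14 groups has 3 libraries, except iaf-1 iaf-2 with 2. The labels of the acf libraries of series 111 carry a further mark, pass0, that those of series 112 lack; its meaning is not given. No agent or other gene is named, and the labels do not say whether replicates were separate cultures, so the p-values below cover the scatter among libraries, perhaps technical, and no more.

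ISWI remodelers are enzymes that use ATP to slide nucleosomes along DNA and set their spacing. The ISWI ATPase is the motor, and it works with accessory subunits that differ between complexes. In Drosophila, the ACF complex joins ISWI to the ACF1 subunit and assembles evenly spaced nucleosome arrays. In Neurospora, isw encodes the ATPase, acf encodes a protein of the ACF1 kind, and iaf-1 and iaf-2 take their names from being ISWI accessory factors. The set-7 gene, named as deleted by the label of 1 strain of series 112, encodes the methyltransferase of PRC2, the complex that places the repressive H3K27 methylation mark.

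The question for these genes was the level of each in strains with and without each other gene. In WT, isw was the most abundant of the 4 in every series when reads were scaled for gene length and library total (TPM, which allows levels of different genes to be compared). Its TPM in WT averaged 74.1 in series 111, 32.9 in series 112 and 33.0 in series 118 (n = 3 each), and in each series its lowest WT library lay above the highest WT library of the next gene. NCU00412 came second in each series, with mean TPM of 38.8, 16.6 and 20.3. The order of the remaining pair changed: NCU09388 had 28.6 TPM and acf 19.1 in series 111, but 8.00 and 12.8 in series 112 and 11.6 and 14.9 in series 118. The ranges of NCU00412 and NCU09388 overlapped in series 111, and those of acf and NCU09388 in series 118. Within each WT library the order still held. The ratio of NCU00412 to NCU09388 ran from 1.24 to 1.46 in series 111. The ratio of acf to NCU09388 ran from 1.2 to 1.36 in series 118. The ratio of NCU00412 to NCU09388 within a WT library was 1.35 ± 0.11 in series 111, 2.07 ± 0.027 in series 112 and 1.76 ± 0.16 in series 118 (SD, n = 3).

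Series 111 libraries totalled 5332503 to 9021398 reads, those of series 112 totalled 5652592 to 22582163, and those of series 118 totalled 11711993 to 21973649. The 10 most abundant genes took between 8.89% and 17.93% of a library. In series 111 each group held 1 pair of libraries that differed little more than counting noise, with a chi-square per degree of freedom of 1.53 to 1.93, where noise alone gives about 1. The other pairs of the same groups gave 14.6 to 71.7. The SDs and p-values of series 111 treat all libraries as separate, save where close pairs are said to be summed. They may therefore be too small. The values below are scaled counts relative to library total (scaled CPM, reads scaled to the library total and corrected with edgeR's TMM factors) in series 111 and 112 and TPM in series 118. They are compared only within a series, since the tables were normalized separately. Called means a Benjamini-Hochberg adjusted p under 0.05 over all genes tested, from edgeR's quasi-likelihood test in series 111 and 112 and from limma on log2(TPM + 1) in series 118. All groups of a series share 1 estimate of the spread of a gene. For isw and the iaf genes it thus includes groups that lack the gene, so their SE and p rest partly on those groups. Fold changes of series 118 are on that log2(TPM + 1) scale, which understates changes of low genes.

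**Figure D1:**
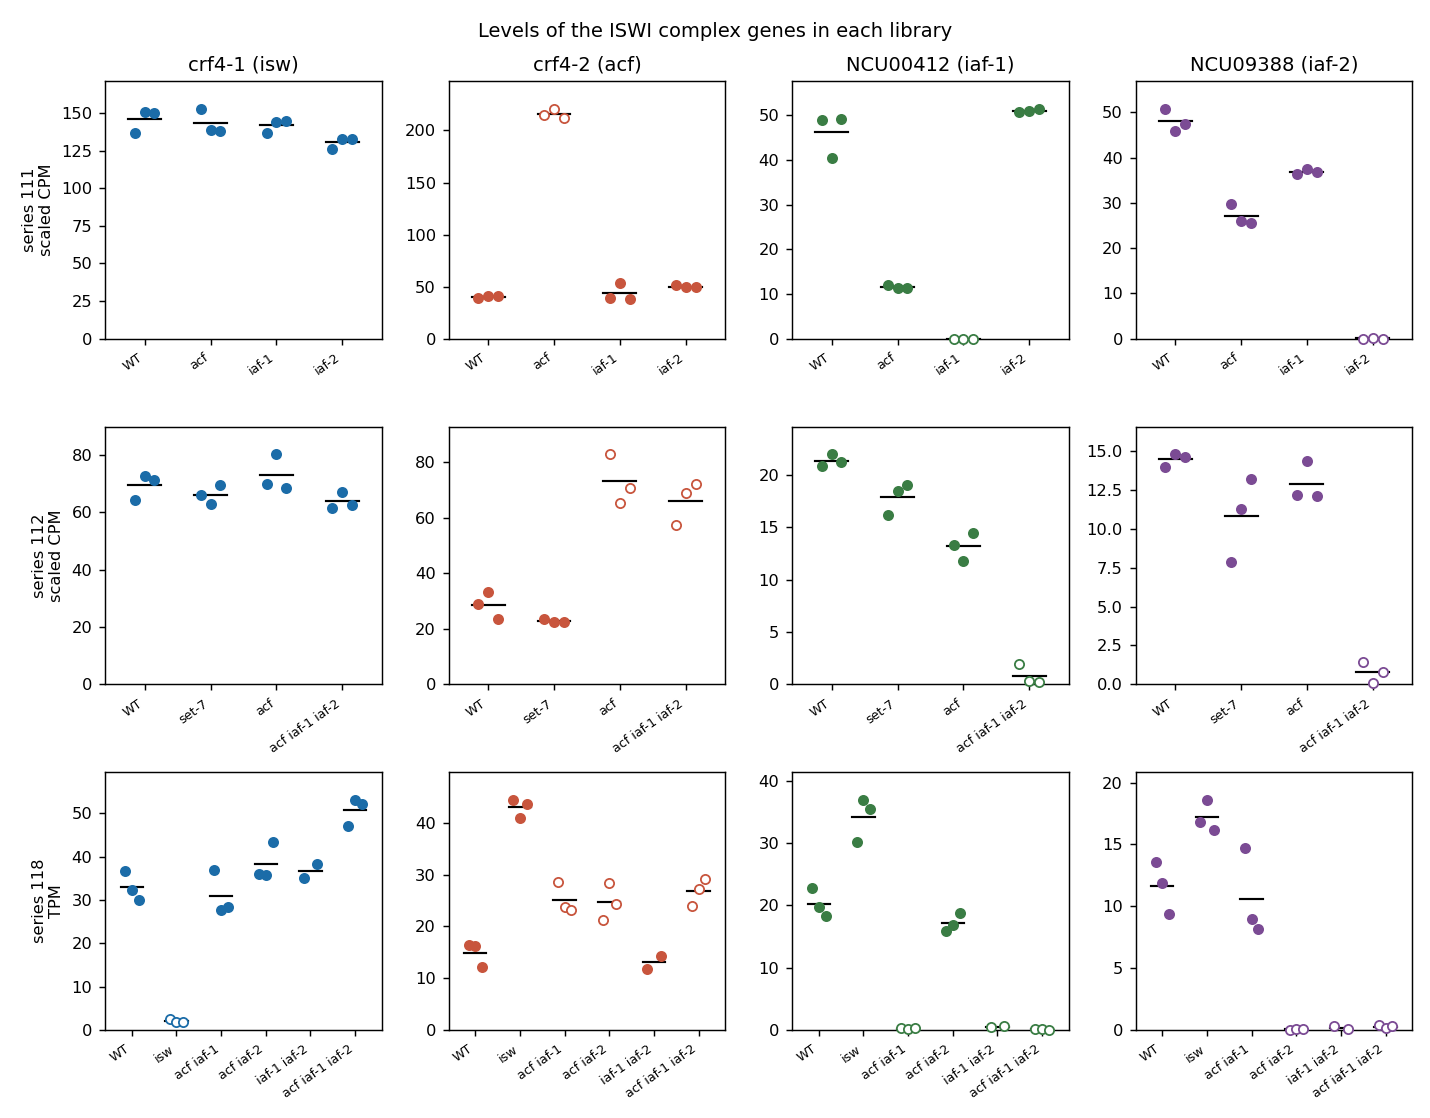
Level of each gene (columns) in every library of the 3 library series (rows), as scaled CPM in series 111 and 112 and as TPM in series 118. Points are libraries, black lines are group means, and open points mark groups whose label names that gene as deleted; the open acf points lie above WT, while the open points of the other genes lie near 0.

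The deleted genes were read first, as a check of the labels. In series 111 the 3 iaf-1 libraries held no NCU00412 read and WT held 1052, so the gene was at least 346-fold lower when the group is set at a floor of 3 reads in all. It had 12 reads in the libraries labelled acf iaf-1, 23 in iaf-1 iaf-2 and 5 in the triple mutant of series 118, or 0.987%, 2.38% and 0.475% of the WT level. NCU09388 was down to 2 reads in the iaf-2 libraries from 1091 in WT, which is 0.155% of the WT level with an exact 95% counting interval of 0.0188% to 0.562%. It had 5 reads in the libraries labelled acf iaf-2, 15 in iaf-1 iaf-2 and 18 in the triple mutant of series 118. In series 111 and 118 both iaf genes were thus near 0 in the groups whose label names them as deleted. The triple mutant of series 112 kept more, 40 reads of NCU00412 and 34 of NCU09388, or 4.47% and 5.63% of the WT level. Its replicate 1 alone held 35 and 26 of them, at 9.02% and 9.88% of the WT level. The isw gene (crf4-1) kept more reads than the iaf genes of series 111 and 118: the isw libraries had 2.63, 1.94 and 1.80 TPM against 36.6, 32.4 and 30.1 in WT. Those 202 reads were 6.56% of the WT level (95% counting interval 5.66% to 7.56%). The gene NCU03876 overlaps isw in the RefSeq annotation and had 323 ± 10.7 TPM in the isw libraries. Whether reads were shared between them was not tested. The set-7 gene also kept reads in the libraries labelled set-7, at 4.47 ± 0.383 scaled CPM against 6.96 ± 1.26 in WT (SD, n = 3), and the sources used here do not give the part removed. Intervals and floors cover counting error only.

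The acf gene (crf4-2) did not show the loss that its label names. In series 111 the libraries labelled acf had 215, 221 and 212 scaled CPM of acf and the WT libraries 39.3, 40.5 and 41.0. In series 112 the libraries labelled acf had 82.9, 65.5 and 70.9, those labelled acf iaf-1 iaf-2 had 57.5, 68.8 and 72.2, and WT had 29.1, 33.3 and 23.7. In every one of these libraries the acf gene lay above all WT libraries of its series. The difference was 5.36-fold in series 111 (log2 fold change 2.42 ± 0.13 SE, edgeR adjusted p = 4.93e-08), 2.54-fold in series 112 (1.34 ± 0.14, edgeR adjusted p = 3.64e-06) and 2.29-fold for the triple mutant of series 112 (1.20 ± 0.14, edgeR adjusted p = 2.98e-06). Series 118 gave the same direction at a smaller size. WT had 16.4, 16.2 and 12.2 TPM there, while the libraries labelled acf iaf-1 had 28.5, 23.7 and 23.2, those labelled acf iaf-2 had 21.3, 28.3 and 24.3, and those labelled acf iaf-1 iaf-2 had 24.0, 27.2 and 29.2. The folds were 1.65 (limma adjusted p = 0.000689), 1.61 (limma adjusted p = 0.00107) and 1.75 (limma adjusted p = 0.00011). The iaf-1 iaf-2 strain, whose label keeps acf, had 11.8 and 14.3 TPM, and the triple mutant lay 1.97-fold above it (limma adjusted p = 7.63e-05). The sources used here do not give the removed part of acf, so an intact gene and transcribed remainders of a deleted one cannot be told apart. Every direction given below for a strain labelled acf rests on its label.

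The deletion of isw went with higher levels of the other 3 genes. In series 118 the acf gene (crf4-2) had 44.4, 41.0 and 43.7 TPM in the isw libraries against 16.4, 16.2 and 12.2 in WT. It rose 2.78-fold (log2 fold change 1.48 ± 0.14 SE, limma adjusted p = 1.11e-07), and its isw libraries also lay above every library labelled acf of that series. NCU00412 had 30.2, 36.9 and 35.4 TPM against 22.7, 19.8 and 18.2, a rise of 1.65-fold (0.73 ± 0.13, limma adjusted p = 0.000243). NCU09388 had 16.8, 18.6 and 16.2 TPM against 13.6, 11.9 and 9.36, a rise of 1.45-fold (0.54 ± 0.20, limma adjusted p = 0.0316). For all 3 genes every isw library was above every WT library. The NCU09388 call was the least secure: it was lost with edgeR on recovered reads (adjusted p = 0.0838), with a pseudocount of 0.1 (limma adjusted p = 0.28), and without any 1 library of the comparison other than WT replicate 1. These counts stand against a wide background, since 48.3% of the 9339 genes tested were called between isw and WT, and 29% of those tested were called higher. In isw the order of the kept genes by TPM was acf, then NCU00412, then NCU09388, with no overlap between neighbours, whereas NCU00412 was above acf in all 3 WT groups.

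The isw gene (crf4-1) itself was not called against WT in most strains that keep it. In series 111 its scaled CPM was 146 ± 7.83 in WT, 143 ± 8.30 in the libraries labelled acf, 142 ± 4.11 in iaf-1 and 130 ± 4.26 in iaf-2 (SD, n = 3). In series 112 it was 69.5 ± 4.45 in WT, 66.2 ± 3.34 in the libraries labelled set-7, 72.8 ± 6.40 in the libraries labelled acf and 63.8 ± 2.97 in the triple mutant. None of these differences from WT was called, with log2 fold changes between -0.16 and 0.07 and edgeR adjusted p of 0.239 to 0.804. In the double mutants of series 118 its level was 31.0 ± 5.16 TPM in those labelled acf iaf-1, 38.4 ± 4.43 in those labelled acf iaf-2 and 36.6 ± 2.23 (n = 2) in iaf-1 iaf-2 against 33.0 ± 3.34 in WT, again with no call (limma adjusted p 0.305 to 0.63). In iaf-2 of series 111 all 3 libraries, at 126, 133 and 133 scaled CPM, lay below the WT libraries at 137, 151 and 150, although the difference was not called (edgeR adjusted p = 0.239). The other ranges overlapped WT, and a p that misses the threshold does not show that the levels are equal. Set against each other, iaf-1 and iaf-2 of series 111 differed by 0.12 ± 0.09 SE on the log2 scale for isw and by -0.20 ± 0.13 for acf, neither called (edgeR adjusted p = 0.448 and 0.366; 8.38% of genes called). The double mutants labelled acf iaf-1 and acf iaf-2 differed by -0.31 ± 0.14 for isw (limma adjusted p = 0.167; 9.96% called).

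The triple mutant of series 118 was the exception for isw (crf4-1). Its libraries had 47.1, 53.1 and 52.1 TPM against 36.6, 32.4 and 30.1 in WT. All 3 lay above every other library of the series, and the rise was 1.52-fold over WT (log2 fold change 0.61 ± 0.14 SE, limma adjusted p = 0.00126), in a comparison where 51.1% of genes were called. The triple mutant was also above the strain labelled acf iaf-1 by 1.63-fold (limma adjusted p = 0.000628; 39.4% of genes called). It was above the strain labelled acf iaf-2 by 1.32-fold (limma adjusted p = 0.0312; 34.6% called) and above iaf-1 iaf-2 by 1.37-fold (limma adjusted p = 0.0238; 39.1% called). Both of the latter calls were lost without triple mutant replicate 2 or replicate 3. The call against the strain labelled acf iaf-2 was also lost without that strain's replicate 1 or 2, and the iaf-1 iaf-2 call without iaf-1 iaf-2 replicate 1. These comparisons share the triple mutant libraries. In series 112 the triple mutant showed no such rise: isw had 61.6, 67.2 and 62.6 scaled CPM against 64.4, 72.7 and 71.4 in WT (log2 fold change -0.13 ± 0.10 SE, edgeR adjusted p = 0.312), while 54.9% of all genes were called there. Against the libraries labelled acf of series 112 it was -0.19 ± 0.10 (edgeR adjusted p = 0.125; 48.2% called).

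NCU00412, the iaf-1 gene, was lower in the libraries labelled acf. In series 111 it had 12.0, 11.4 and 11.4 scaled CPM there against 49.0, 40.5 and 49.2 in WT. It fell 3.98-fold (log2 fold change -1.99 ± 0.13 SE, edgeR adjusted p = 4.61e-07), with no overlap between the groups. Both iaf genes were called lower in this comparison and isw was not, where 66% of the 7974 genes tested were called and 34.4% were called lower. In series 112 NCU00412 had 13.3, 11.8 and 14.5 scaled CPM in the libraries labelled acf against 20.9, 22.0 and 21.3 in WT. The groups did not overlap, but the 1.62-fold difference missed the threshold in edgeR with all groups in the fit (log2 fold change -0.70 ± 0.28 SE, adjusted p = 0.0794). It passed in DESeq2 (adjusted p = 0.0305) and in edgeR with only the compared groups (adjusted p = 0.00422); 27.2% of genes were called in that comparison. In series 118 the strain labelled acf iaf-2 had 15.8, 16.9 and 18.7 TPM against 22.7, 19.8 and 18.2 in WT, 1.17-fold lower on the fitted scale with overlapping ranges and no call (limma adjusted p = 0.257; 24.7% called).

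NCU00412 was not called in the other strains that keep it apart from isw. In iaf-2 of series 111 it had 50.7, 50.9 and 51.5 scaled CPM, above all 3 WT libraries by a small margin (log2 fold change 0.14 ± 0.12 SE, edgeR adjusted p = 0.417; 19.6% of genes called). The libraries labelled acf lay 4.39-fold below iaf-2 (edgeR adjusted p = 3.32e-07; 64.2% called). The libraries labelled set-7 of series 112 had 16.2, 18.5 and 19.1 scaled CPM, below all 3 WT libraries (-0.25 ± 0.28, edgeR adjusted p = 0.584; 14.1% called).

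NCU09388, the iaf-2 gene, followed the same direction as NCU00412 in the libraries labelled acf, with smaller differences. In series 111 it had 29.8, 25.9 and 25.6 scaled CPM there against 50.8, 45.8 and 47.3 in WT. It fell 1.77-fold (log2 fold change -0.83 ± 0.16 SE, edgeR adjusted p = 0.000703), and the groups did not overlap. In iaf-1 of the same series it had 36.3, 37.5 and 36.9 scaled CPM, between those groups and overlapping neither. That difference from WT missed the threshold (-0.38 ± 0.16, edgeR adjusted p = 0.0932; 28.8% of genes called), but passed in DESeq2 (adjusted p = 0.0128) and in edgeR with only the compared groups (adjusted p = 0.0425). The libraries labelled acf lay 1.36-fold below iaf-1 (edgeR adjusted p = 0.0323; 59.2% called), a call that was lost under 8 alternatives, among them median-ratio scaling (adjusted p = 0.0612). In series 112 the libraries labelled acf had 12.2, 14.4 and 12.1 scaled CPM and those labelled set-7 had 7.89, 11.3 and 13.2, against 14.0, 14.8 and 14.6 in WT. Neither was called (edgeR adjusted p = 0.696 and 0.38), and the libraries labelled set-7 were the most spread of the 3 groups. In series 118 the strain labelled acf iaf-1 had 14.7, 8.99 and 8.19 TPM against 13.6, 11.9 and 9.36 in WT, with overlapping ranges (limma adjusted p = 0.6; 31.6% called).

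The acf gene (crf4-2) was not called in strains whose label keeps both acf and isw. In iaf-2 of series 111 it had 51.1, 49.4 and 49.4 scaled CPM, above all WT libraries at 39.3 to 41.0, yet the 1.24-fold difference missed the threshold (edgeR adjusted p = 0.0996). In iaf-1 it had 39.1, 53.3 and 38.2, where only replicate 2 stood above WT (edgeR adjusted p = 0.517). The libraries labelled set-7 of series 112 had 23.7, 22.6 and 22.5 against 29.1, 33.3 and 23.7 in WT, 1.26-fold lower (edgeR adjusted p = 0.124). Without WT replicate 3 this was called (log2 fold change -0.46, edgeR adjusted p = 0.0356). In iaf-1 iaf-2 of series 118 it overlapped WT (limma adjusted p = 0.473; 21.5% called). Across the 11 comparisons of a mutant with WT there were 27 pairs of a mutant and a gene that its label keeps, of which 4 were called higher and 2 lower, or 22.2%. Of all genes tested, between 14.1% and 66% were called in those comparisons. The 3 rises in isw and the rise of isw in the triple mutant of series 118 made up the first, and both iaf genes in the libraries labelled acf of series 111 the second.

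**Figure D2:**
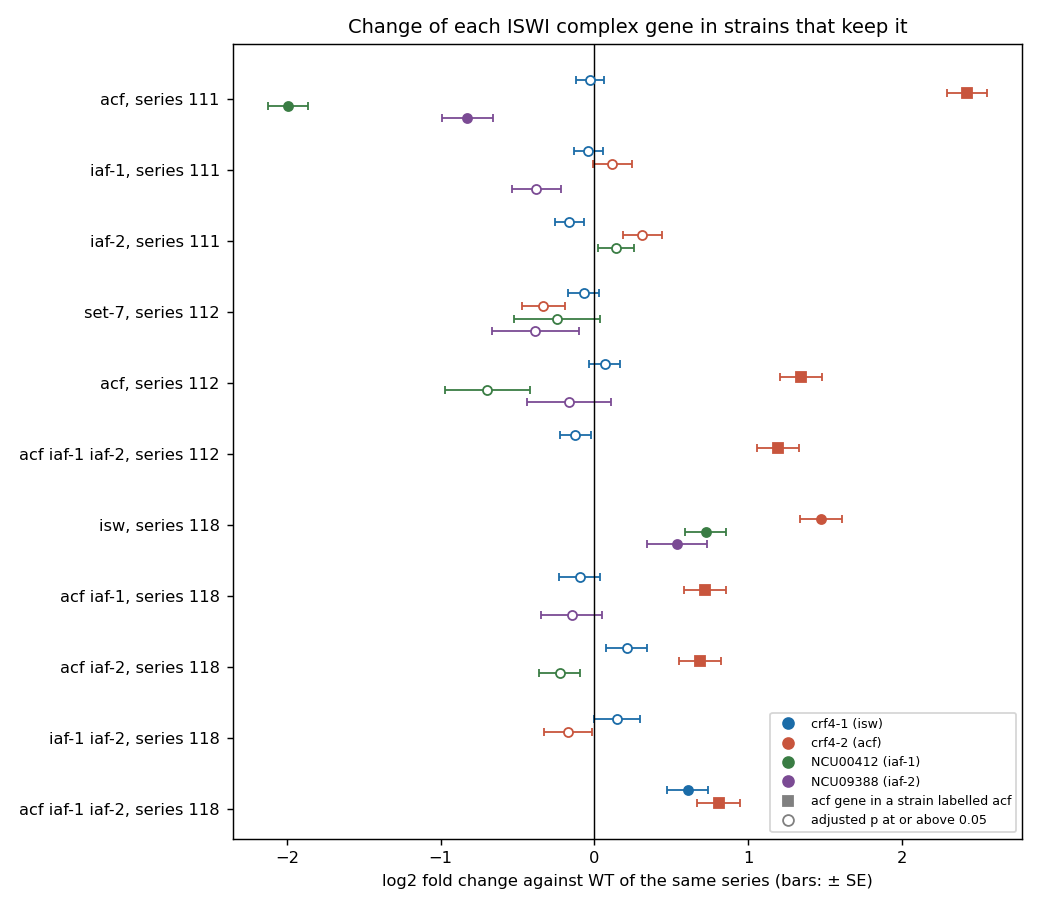
Log2 fold change against WT of the same series for each gene in each mutant whose label keeps it, with bars of ± 1 SE, and for the acf gene also in strains labelled acf (squares). Filled symbols have an adjusted p under 0.05; NCU00412 at -1.99 in the libraries labelled acf of series 111 and acf at 1.48 in isw lie farthest from 0 among the round symbols.

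Because the 4 genes changed unequally, their proportions within a library shifted. In the libraries labelled acf of series 111 the TPM ratio of NCU00412 to NCU09388 was 0.602 ± 0.033, against 1.35 ± 0.11 in WT (SD, n = 3), so the order of the iaf genes was turned. In the libraries labelled acf of series 112 the ratio was 1.45 ± 0.27 against 2.07 ± 0.027 in WT, lower but still above 1. In isw it was 1.99 ± 0.19 against 1.76 ± 0.16 in WT, with overlapping libraries. The TPM ratio of isw to NCU00412 was 7.52 ± 0.23 in the libraries labelled acf of series 111 against 1.95 ± 0.29 in WT, 3.40 ± 0.66 in those of series 112 against 1.98 ± 0.088, and 2.24 ± 0.11 in those labelled acf iaf-2 of series 118 against 1.63 ± 0.019. The share of the ATPase transcript relative to the iaf-1 transcript was thus above WT in all 9 libraries that keep both genes and are labelled acf, by different amounts in each series.

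Whether the acf effect differed between series 111 and 112 was tested with a genotype by series term in edgeR, where 47.5% of all genes were called. The acf gene itself was higher by 1.17 ± 0.19 SE on the log2 scale in series 111 than in series 112 (adjusted p = 0.000314). NCU00412 fell further in series 111, by 1.21 ± 0.20 (log2 difference -1.21, edgeR adjusted p = 0.000276). NCU09388 did too, with a log2 difference of -0.57 ± 0.18 (edgeR adjusted p = 0.0213), a call that was lost without replicate 2 of the libraries labelled acf in series 111 (adjusted p = 0.0514) or in series 112 (adjusted p = 0.0632). For isw the difference was -0.00 ± 0.16 (edgeR adjusted p = 0.993). The series differ in library batch and depth and in the pass0 mark on the acf labels, and these cannot be told apart from a difference between the strains used. In the libraries labelled acf of series 111 the TMM factors were also lower than in WT, 0.824 to 0.898 against 1.01 to 1.11, and with median-ratio scaling in place of TMM the differences were 1.141 for acf, -1.23 for NCU00412 and -0.60 for NCU09388.

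**Figure D3:**
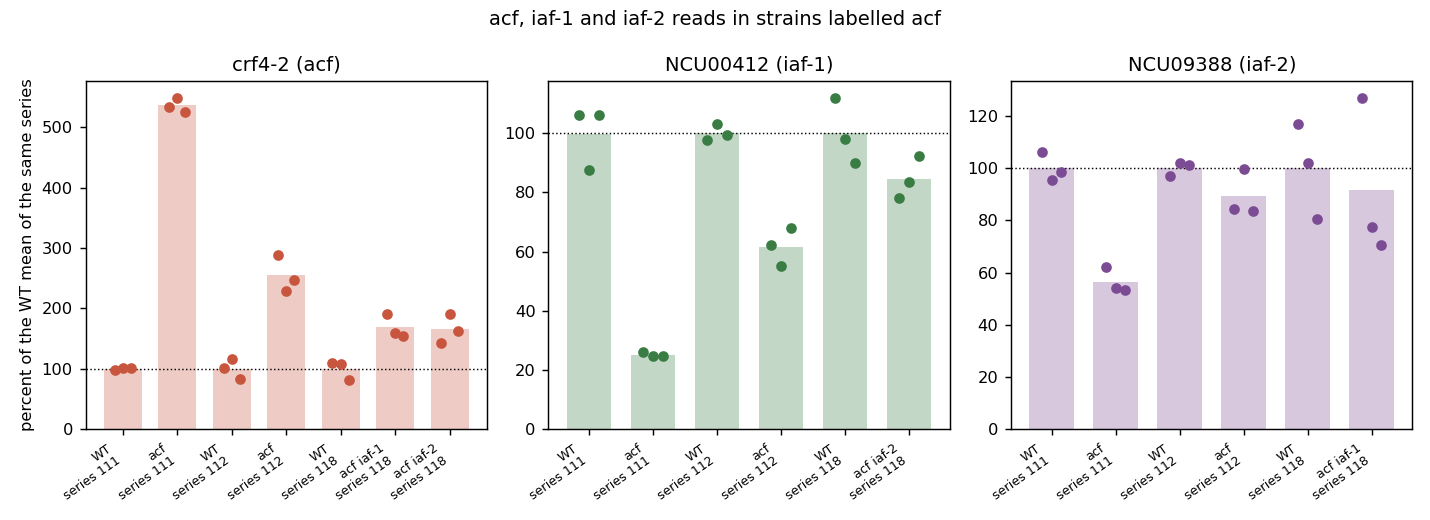
Level of acf, NCU00412 and NCU09388 in libraries labelled acf as a percent of the WT mean of the same series (y axis), with points for libraries and bars for group means from 0; only groups whose label keeps the plotted iaf gene are shown, and triple mutants are left out. The acf gene lies above 100% in all plotted groups labelled acf, and NCU00412 lies below 100% in all 3, farthest in series 111.

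For the triple mutant, the change of isw in series 112 and in series 118 was compared in limma on TPM. It differed by -0.89 ± 0.17 on the log2 scale (series 112 minus series 118, adjusted p = 0.00206), against a median of all genes of -0.19 and 24% of genes called. After median-ratio scaling the value was -0.69 (limma adjusted p = 0.00287). The acf gene's own change in the triple mutant did not differ by that test (0.18 ± 0.24, limma adjusted p = 0.626). The depth of the WT and triple mutant libraries and the unit of the table also differ between these series, and their part was not tested.

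The 6 groups of series 118 also allow a model with 1 term for the absence of each gene, and a second model that adds a term for the departure of the triple mutant from the sum of its parts. Absence of isw went with a rise of acf by 1.52 ± 0.14 SE on the log2 scale (limma adjusted p = 4.1e-07), of NCU00412 by 0.68 ± 0.14 (limma adjusted p = 0.000936) and of NCU09388 by 0.59 ± 0.20 (limma adjusted p = 0.0253), with 47.5% of genes called. With a pseudocount of 0.1 the terms for NCU00412 and NCU09388 were not called (limma adjusted p = 0.257 and 0.181). The terms for these genes also rest on groups whose label names the gene as deleted, where it was near 0. The term for the acf label was -0.30 ± 0.11 for NCU00412 (limma adjusted p = 0.0461; 25.4% called). NCU00412 was not called in acf iaf-2, the only strain labelled acf in series 118 that keeps iaf-1. The other groups with that label lack the gene, so the term is not read as a fall of NCU00412. The acf term gave no call for NCU09388 or isw (limma adjusted p = 0.639 and 0.749). With a pseudocount of 0.1 the value for NCU00412 was -0.78 (limma adjusted p = 0.0363). A smaller pseudocount widens differences near 0. NCU00412 had 0.507 TPM in iaf-1 iaf-2 and 0.0943 in the triple mutant, both named as lacking it. The larger value is therefore not read as support. Absence of iaf-1 gave no call for any of the other genes (limma adjusted p 0.776 to 0.943; 15.5% called). Absence of iaf-2 gave 0.37 ± 0.12 for isw, which missed the threshold (limma adjusted p = 0.059; 12.2% called). The departure from additivity was 0.48 ± 0.14 for isw (limma adjusted p = 0.0155), with 31.7% of genes called. Series 118 holds no single mutant of acf, iaf-1 or iaf-2. The single effects are therefore fitted from the double mutants, with no interaction between pairs of genes assumed. The departure of isw in the triple mutant cannot be told apart from such pairwise interactions. The triple mutant's acf reads were 1.59-fold below those in isw (limma adjusted p = 0.0045; 17.5% called).

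The other remodeler genes were taken as the 10 further genes with crf symbols, a family named for chromatin remodeling factors. In isw 3 of 10 were called higher and none lower: crf10-1 1.96-fold (limma adjusted p = 0.000134), crf4-3 1.36-fold (limma adjusted p = 0.00322) and crf2-1 1.35-fold (limma adjusted p = 0.0112). Among all genes 29% were called higher and 19.3% lower there, so a count of 3 in 10 is near the background. The median log2 fold change of the 10 was 0.28, against 0.08 over all genes. In the libraries labelled acf of series 111, 4 were called lower and 1 higher, with crf7-1 falling 3.32-fold (edgeR adjusted p = 2.67e-06) and crf10-1 2.61-fold (edgeR adjusted p = 7.22e-06), while crf9-1 rose 1.6-fold (edgeR adjusted p = 0.00121). Among all genes 34.4% were called lower and 31.6% higher. The list median was -0.20 against -0.09 over all genes. In the triple mutant, 5 were called lower in series 112, where 26.3% of all genes were, and 2 higher in series 118, where 29.8% were. Called lower, with none higher, were 2 in iaf-1 (13% of all genes), 2 in the libraries labelled acf of series 112 (12%), 3 in those labelled set-7 (6.72%) and 1 in the strain labelled acf iaf-1 (13.9%). The counts of 1 and 2 are near these shares. The 3 in the libraries labelled set-7 lie above their share, with a list median of -0.339 against 0.003 over all genes. With only 10 genes, nothing particular to the list is read from these counts. None of the 10 was called in iaf-2 by edgeR, where 19.6% of all genes were. There 1 had an unadjusted p under 0.05, and DESeq2 called none. By limma none was called in the strain labelled acf iaf-2, where 24.7% of all genes were (1 unadjusted, and 2 called by edgeR on recovered reads). Nor was any called in iaf-1 iaf-2, where 21.5% of all genes were (none unadjusted, none by edgeR). With 10 genes, the lack of a call does not show unchanged levels.

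PRC2 and its associates were a second list of 6 genes: the methyltransferase gene set-7, NCU05300 and NCU05460 for the EED and SUZ12 core subunits, npf (cac-3) for the histone-binding p55 subunit, epr-1 (NCU07505) for a reader of H3K27 methylation and ash1 (set-3) for an H3K36 methyltransferase. In isw 5 of 6 were called higher, where 29% of all genes were, with NCU05300 at 7.47 ± 0.81 TPM against 2.34 ± 0.0942 in WT (SD, n = 3; 2.53-fold, limma adjusted p = 1.5e-06) and set-7 at 8.03 ± 0.545 against 4.42 ± 1.22 (1.69-fold, limma adjusted p = 0.000884). NCU05460 went the other way, at 5.28 ± 0.705 against 8.84 ± 0.684 TPM (1.57-fold lower, limma adjusted p = 0.00414). It was also called lower in the libraries labelled acf of both series, in iaf-1, in the strains labelled acf iaf-1 and acf iaf-2 and in both triple mutants. In the triple mutant of series 118 the list had 4 called higher and 1 lower, where 29.8% of all genes were higher, and NCU05300 rose 2.98-fold (limma adjusted p = 1.99e-07). In the libraries labelled acf of series 111, 4 of 6 were called lower and none higher, where 34.4% of all genes were lower. Among the other mutants the list had at most 3 calls. They were all lower in iaf-1 (3 genes; 13% of all genes), in the libraries labelled acf of series 112 (2 genes; 12%) and in those labelled set-7 (2 genes; 6.72%), where they were npf and the set-7 gene itself. They were all higher in iaf-1 iaf-2 (2 genes; 14% of all genes). The strains labelled acf iaf-1 and acf iaf-2 each had 1 called higher and 1 lower. In those comparisons 31.6% and 24.7% of all genes were called. The triple mutant of series 112 had 1 called higher and 2 lower, where 54.9% of all genes were called. None of the 6 was called in iaf-2 by edgeR, where 19.6% of all genes were. There 1 had an unadjusted p under 0.05, and DESeq2 called 1. The list median was 0.68 in isw and -0.996 in the libraries labelled acf of series 111, against 0.08 and -0.09 over all genes.

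**Figure D4:**
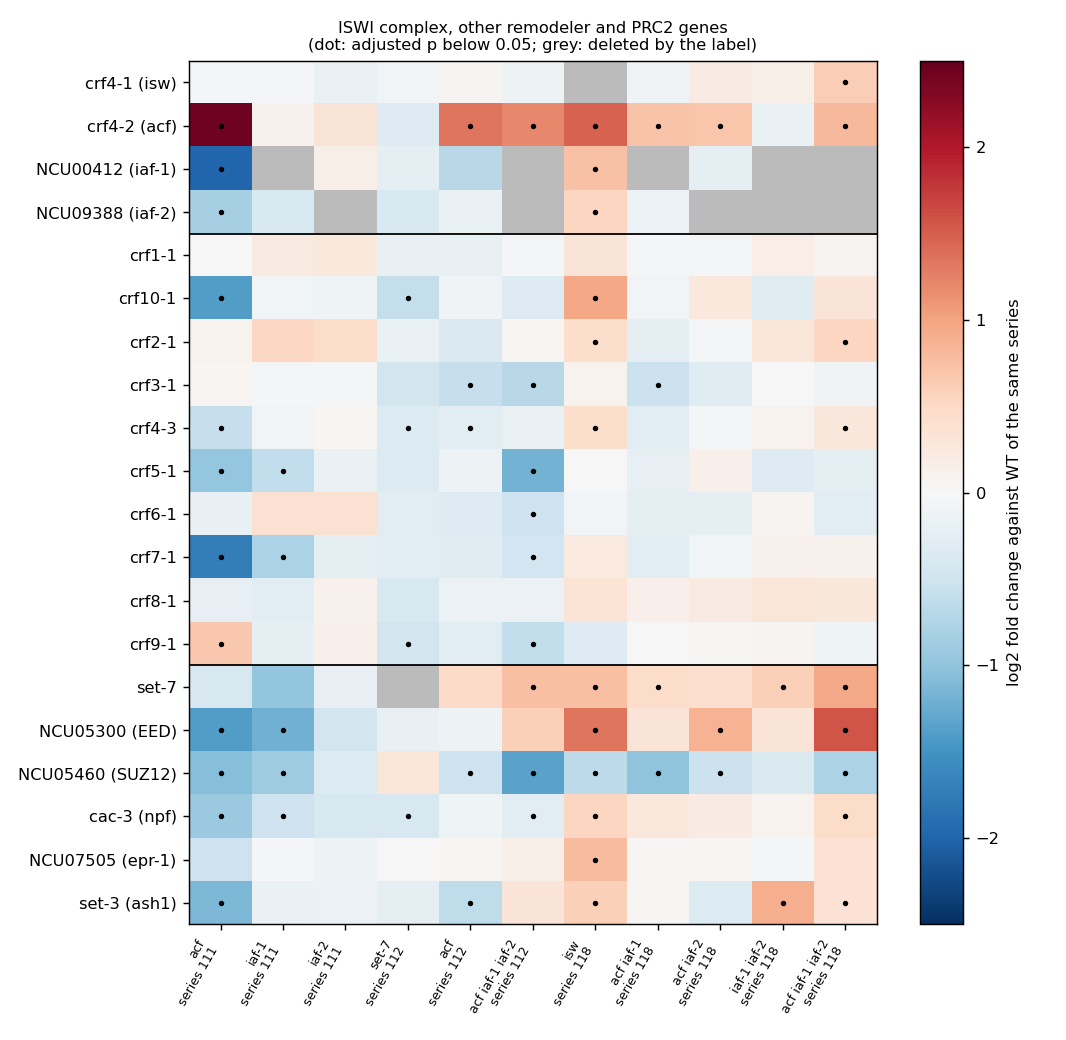
Log2 fold change against WT of the same series (colour scale) for the ISWI complex genes, the other crf genes and the PRC2 genes (rows) in the 11 mutants (columns). Dots mark an adjusted p under 0.05 and grey cells a gene that the label names as deleted, other than acf, whose reads are shown throughout; the isw column is mostly red and the column of acf in series 111 mostly blue.

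The genes next to each of the 4 on the chromosome were read as well, since a deletion can reach its neighbours and reads of overlapping genes can be shared. Positions were used for gene order only, from the RefSeq table of assembly NC12. NCU00411, which overlaps the iaf-1 gene in that annotation, had 46.5 ± 2.77 TPM in WT of series 118 and 78.0 ± 2.21 in the strain labelled acf iaf-1, 81.2 ± 3.81 (n = 2) in iaf-1 iaf-2 and 69.2 ± 2.59 in the triple mutant (SD, n = 3). It was called higher in these 3 groups that lack iaf-1 (1.66-fold, 1.73-fold and 1.48-fold, limma adjusted p = 1.85e-05, 4.99e-05 and 0.000153). It was called neither in the strain labelled acf iaf-2 (limma adjusted p = 0.319) nor in isw (limma adjusted p = 0.0892). The term for absence of iaf-1 was 0.61 ± 0.08 on the log2 scale (limma adjusted p = 0.000145). Outside series 118 it was called higher in the triple mutant of series 112 (1.73-fold, edgeR adjusted p = 0.000201), which lacks iaf-1. It was also called higher in the libraries labelled set-7 (1.57-fold, edgeR adjusted p = 0.00726) and in the libraries labelled acf of series 111 (1.56-fold, edgeR adjusted p = 0.00297) and 112 (1.56-fold, edgeR adjusted p = 0.00354), all of which keep iaf-1. In iaf-1 of series 111 it was not called (1.21-fold, edgeR adjusted p = 0.214). On the other side of iaf-1, NCU16684 fell 1.98-fold in iaf-1 of series 111 (edgeR adjusted p = 0.00095) and was not called in any group of series 118 that lacks iaf-1. It was also lower in the libraries labelled acf of series 111, which keep iaf-1 (1.57-fold, edgeR adjusted p = 0.00297).

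Next to acf, NCU11172 fell 5.06-fold in the strain labelled acf iaf-1 (12.1 ± 1.05 TPM against 65.0 ± 4.22 in WT, SD, n = 3; limma adjusted p = 1.49e-08) and less in strains that keep acf by their label, 2.16-fold in iaf-1 iaf-2 (limma adjusted p = 0.000633) and 1.68-fold in isw (limma adjusted p = 0.00219). It also fell 3.84-fold in the triple mutant of series 112 (edgeR adjusted p = 2.15e-05), but was not called in that of series 118 (limma adjusted p = 0.301). Nor was it called in the strain labelled acf iaf-2 (56.1 ± 6.64 TPM). In the libraries labelled acf it was not called in series 112, at 33.4 ± 3.38 scaled CPM against 33.6 ± 8.54 in WT. In series 111 it was not called either, at 33.9 ± 6.03 against WT libraries from 34.7 to 127. Of the terms for absence of a gene in series 118, that for iaf-1 called it lower and that for acf did not. NCU00163, on the other side of acf, was called against WT only in the triple mutant of series 112 (1.31-fold lower, edgeR adjusted p = 0.0374). The neighbours of isw, NCU03874 and NCU03876, were not called in the isw strain (limma adjusted p = 0.283 and 0.0682). Of these, NCU03876 overlaps isw in that annotation. In the libraries labelled acf of series 111 they rose 2.76-fold and 2.36-fold (edgeR adjusted p = 5.87e-07 and 1.06e-06), where isw between them did not. NCU03876 was called lower in both triple mutants. It had 194 ± 21.5 TPM against 270 ± 4.52 in WT of series 118, where isw rose. In series 112 it had 131 ± 8.67 scaled CPM against 184 ± 6.64 in WT. NCU03874 was called higher in the triple mutant of series 112 only. Whether shared reads play a part was not tested. Next to iaf-2, smco-1 was not called in iaf-2 of series 111 (edgeR adjusted p = 0.404). In series 118 it was called higher in iaf-1 iaf-2 (1.65-fold, limma adjusted p = 0.00396) and in the triple mutant (1.38-fold, limma adjusted p = 0.0146), and the term for absence of iaf-2 was 0.54 ± 0.10 on the log2 scale (limma adjusted p = 0.0026). It was also called higher in strains that keep iaf-2, namely isw (1.48-fold, limma adjusted p = 0.00399) and the libraries labelled acf of series 111 (1.46-fold, edgeR adjusted p = 0.00114). The other neighbour, fmf-1, a fertility regulator, did not pass the filter on low values.

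The genes whose levels ran most closely with each of the 4 were sought over the libraries that keep it, with log2(CPM + 1) centred on the WT mean of the series. These correlations are descriptions, since libraries of a group share a strain and a batch, and no p is given. These CPM carry no composition scaling, and r after median-ratio scaling within each series, chosen after seeing the data, is given beside them. Over 38 libraries and 7430 genes, isw (crf4-1) ran closest with NCU02808 and NCU03126 (Pearson r = 0.86 each) and NCU00115 (0.83). After scaling these were 0.74, 0.75 and 0.81, and within 1 series they lay at 0.57 to 0.83, 0.6 to 0.7 and 0.9 to 0.93 for series 111, 112 and 118 respectively. Over 23 libraries, acf (crf4-2) ran closest with spa2, which encodes a polarity protein of the hyphal tip, and with NCU03366 and NCU02956 (0.96 each). These were 0.94 to 0.95 after scaling, and 0.76 to 0.82, 0.89 to 0.96 and 0.98 within series 111, 112 and 118. Over 27 libraries, NCU00412 ran with NCU09808 (0.98), NCU02411 (0.97) and rpn-7, a proteasome lid subunit (0.96). Scaled values were 0.94 to 0.96, and those within series 111, 112 and 118 were 0.98 to 0.99, 0.72 to 0.82 and 0.86 to 0.97. Over 27 libraries, NCU09388 ran with NCU08510 (0.95), NCU07313 (0.94) and NCU06144 (0.94). Scaled values were 0.91 to 0.92, and those within the series were 0.93 to 0.96, 0.84 to 0.92 and 0.89 to 0.97.

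Between the 4 genes themselves, r over the libraries whose labels keep both was 0.94 for acf and NCU00412 (18 libraries; 0.93 after scaling). It was 0.92 for NCU00412 and NCU09388 (21 libraries; 0.87 after scaling) and 0.81 for acf and NCU09388 (18 libraries; 0.77 after scaling). The pairs with isw depended on the scaling: r was 0.86 for isw and NCU09388 (24 libraries; 0.34 after scaling), 0.54 for isw and NCU00412 (24 libraries; -0.21 after scaling) and 0.07 for isw and acf (20 libraries; -0.37 after scaling). Without scaling, the isw gene (crf4-1) had 137.2, 122.9 and 113.9 CPM in the libraries labelled acf of series 111 against 149.7, 152.7 and 166.9 in WT, whereas the scaled levels given above overlapped. The 18 libraries that keep acf and NCU00412 include the 3 isw libraries, where both were high.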

How the data were processed

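RNA-seq of 41 libraries was analysed. Per the labels' protocols, Trizol and lithium chloride were used for RNA and a stranded mRNA kit for libraries. In the submitters' processing notes stand HISAT2 2.1.0, featureCounts (Subread 1.6.2), SAMtools 1.9, cutadapt 1.14, Trim Galore 0.4.4 and FastQC. Build, annotation and strand setting: not given in the sources used here. This leaves overlapping genes uncertain. For series 111 and 112 the authors deposited raw counts of reads, and for series 118 TPM. No column was left without a sample. Of 10397 identifiers, 10363 matched the RefSeq table of assembly NC12 and 34 did not.

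Counts were tested with edgeR 4.0.16 in R 4.3.3 (quasi-likelihood, TMM, filterByExpr, robust). The design assumed counts throughout; since series 118 held TPM, it was tested on log2(TPM + 1), computed from the deposited values, with limma 3.58.1 (trend, robust) over genes that reached 1 TPM in 2 or more libraries. Whole reads were recovered from the TPM of 10397 genes (100% within a tolerance of 0.001), gave the library totals and were tested with edgeR as an alternative: it called 4738 genes between isw and WT. For TPM in series 111 and 112, counts were divided by the lengths recovered from series 118. All groups of a series entered the fit, and p-values were Benjamini-Hochberg adjusted over all genes tested. Alternatives were DESeq2 1.42.0, other scalings, filters and pseudocounts, a replicate block, only the compared groups, close pairs summed and each library left out.

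The named genes are the 4 ISWI genes, the nearest gene on each side, the other crf genes, 6 PRC2 and related genes, and the 3 genes correlating best with each of the 4 among genes of at least 5 CPM on average. The genes and lists were chosen with earlier results of these data known. The scripts were tested on simulated counts. The ChIP-seq and MNase-seq samples were not used here.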

Additional observations from a re-analysis of the deposited data

Results flagged for a closer look

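A total of 4 results differed between library series by an interaction test. Such differences were common among all genes tested. For the libraries labelled acf, 47.5% of genes were called between series 111 and 112. For the triple mutant, 24% were called between series 112 and 118. The change in libraries labelled acf differed between series 111 and series 112 for the acf gene (log2 difference 1.17, edgeR adjusted p = 0.000314), for NCU00412 (-1.21, edgeR adjusted p = 0.000276) and for NCU09388 (-0.57, edgeR adjusted p = 0.0213). In all 3 the change was larger in series 111, in 3 of 3 libraries, and the direction within each series was the same. With the close pairs of series 111 summed, the values were 1.07, -1.27 and -0.67 and each was still called (edgeR adjusted p = 0.00411, 0.00159 and 0.0277).

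The change of isw in the triple mutant differed between series 112 and series 118 (-0.89, limma adjusted p = 0.00206). It was higher than WT in 3 of 3 libraries of series 118, while the ranges overlapped in series 112.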

How the results depend on the processing

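Of 722 alternative values over 75 results, 689 kept their side of the threshold, 27 lost the call and 6 gained one. None changed sign where either fit was called. A change of sign was not counted where neither fit was called. NCU09388 in isw lost it with a pseudocount of 0.1 (0.573) and with edgeR on recovered reads (0.506), and ranged from 0.401 to 0.65 with 1 library left out. NCU09388 in iaf-1 gained it with DESeq2 (-0.392) and with only the compared groups (-0.381), and ranged from -0.409 to -0.353 with 1 library left out. NCU00412 in the libraries labelled acf of series 112 gained it with DESeq2 (-0.688) and with only the compared groups (-0.676). With 1 library left out, acf in the libraries labelled set-7 ranged from -0.455 to -0.207 and the series difference of NCU09388 from -0.682 to -0.484. A lone iaf-1 iaf-2 library was assumed to vary like the other groups. The causes were not tested. The additive terms for isw on NCU00412 and NCU09388 lost the call with a pseudocount of 0.1 (limma adjusted p = 0.257 and 0.181).

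Replicate numbers showed no general pairing of the libraries: the median correlation of same-numbered deviations was -0.01, -0.09 and -0.05 in series 111, 112 and 118. Single pairs ranged from -0.51 to 0.13, from -0.33 to 0.43 and from -0.42 to 0.54, so a pairing of some groups is not excluded. With a replicate block, 1 of 52 results changed its call, NCU09388 in the libraries labelled acf against iaf-1 (-0.453, edgeR adjusted p = 0.0545).

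The number of genes called depended on the fit. With close pairs summed it was 476 for iaf-1 (2299 in all libraries), 4 for iaf-2 (1564), 14 for iaf-1 against iaf-2 (668) and 3137 for the libraries labelled acf against iaf-1 (4718). For iaf-1 against iaf-2 it was 1004 with DESeq2 and 1637 with only the compared groups. That last setting gave 792 for iaf-2, 447 for the libraries labelled set-7 (1235), 994 for iaf-1 iaf-2 (2007) and 2138 for the triple mutant against iaf-1 iaf-2 (3651). Low reads limit the deleted genes.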
